A study of Mus musculus with 2 samples.

Results

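The germinal centre repressors and the DNA repair enzymes of antibody diversification, 8 genes in all, were examined for binding of TCF12 in the mouse B-cell lymphoma line CH12.LX. They were chosen by name from 20923 protein-coding genes, 4 of each kind: Bcl6, Bach2, Ezh2 and Bcor on the repressor side, and Ung, Msh6, Exo1 and Polh on the repair side. The choice was made with earlier results of these data known. For each gene the window ran from 30 kb upstream of its 5′ end to its 3′ end on the mm10 build, and every TCF12 peak whose summit lay in the window was taken. The data were chromatin immunoprecipitation and sequencing (ChIP-seq) with an antibody to TCF12 in 2 biological replicates of the one immortalised line, whose source strain is given as B10.H-2aH-4bp/Wts. There was 1 group, with no treatment and no second genotype, so the members were set beside all genes and all peaks of the same lists. The peaks were those of the authors' optimal list of 35848, thresholded at their irreproducible discovery rate (IDR) step. Presence in it does not by itself show that both replicates ranked a peak alike, so each replicate's own values are given. Signal is the peak caller's own height for a peak, with no stated scaling, and expression was not measured.

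TCF12 (HEB) belongs to the E proteins, basic helix-loop-helix factors that dimerise on the E-box, a word of the letters CANNTG. In the germinal centre, B cells mutate and switch their antibody genes: deaminated cytosines are excised by the uracil glycosylase UNG or recognised by mismatch repair through MSH6, the exonuclease EXO1 resects the strand, and the error-prone polymerase eta, encoded by Polh, fills the gap. BCL6 holds the germinal centre programme by repression with corepressors such as BCOR, BACH2 represses plasma cell genes, and EZH2 is the histone H3 lysine methyltransferase of Polycomb repressive complex 2.

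The sequences below lie at the summits that carry the results and show which of them hold an E-box of the letters CAGCTG or CACCTG, in capitals, on either strand (CAGGTG is CACCTG read on the other strand). They run from 50 bp before to 50 bp after the summit on mm9, plus strand, read from the NCBIM37 genome, because no mm10 genome sequence was used. For Ezh2, Msh6, Bach2 and Bcor the strongest mm9 peak is given. A second peak of Bach2, chosen after its values were seen, is added because it holds the E-box that the strongest one lacks. For Exo1 the 30 bases round the E-box are given, and the windows of Bcl6 and Ung, which lie wholly or partly in a UTR, are not shown.
Ezh2 upstream peak, chr6:47571231-47571331: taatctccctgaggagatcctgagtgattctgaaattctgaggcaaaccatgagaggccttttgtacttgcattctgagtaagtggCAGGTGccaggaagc
Msh6 promoter peak, chr17:88374051-88374151: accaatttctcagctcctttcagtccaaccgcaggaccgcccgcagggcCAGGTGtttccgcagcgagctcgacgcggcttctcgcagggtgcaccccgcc
Bach2 strongest peak, chr4:32511570-32511670: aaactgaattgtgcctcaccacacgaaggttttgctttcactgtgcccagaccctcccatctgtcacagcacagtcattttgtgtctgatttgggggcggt
Bach2 neighbouring peak, chr4:32508740-32508840: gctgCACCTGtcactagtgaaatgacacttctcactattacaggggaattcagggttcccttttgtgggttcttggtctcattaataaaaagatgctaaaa
Bcor strongest peak, chrX:11735531-11735631: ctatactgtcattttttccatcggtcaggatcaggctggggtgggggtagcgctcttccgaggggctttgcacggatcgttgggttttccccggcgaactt
Exo1 E-box, chr1:177810973-177811002: cgttctgaacccCAGGTGagcgagcgagcc
The Ezh2 and Msh6 windows hold the same word, CAGGTG, centred 38 bp and 1 bp from the summit. The strongest Bach2 and Bcor windows hold neither E-box, while the second Bach2 window holds CACCTG centred 44 bp from the summit.

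All 8 members held at least 1 optimal peak in the window, against 63.6% of all genes. Because the genes were chosen with earlier results known, this count is a description and not a test. Windows differ in length, and with genes cut into 5 equal groups by window length the share with a peak was 36.5%, 64.3%, 71.0%, 74.6% and 71.6% from the shortest group to the longest. None of the members lay in the shortest group. Ung lay in group 2, Bcl6 and Msh6 in group 3, Exo1 and Polh in group 4, and Bach2, Bcor and Ezh2 in the longest. The members held 39 peaks, 0.109% of the optimal list, in 887 kb of window. That is 4.40 peaks per 100 kb pooled over the 8 windows, against 1.36 over the genome. Taken gene by gene, the density over all genes had a median of 2.07 and an upper quartile of 5.34. The median signal of the members' peaks was 29.99, with quartiles of 21.6 and 45.0. For all optimal peaks it was 35.0, with quartiles of 22.9 and 58.6. Most of the members' peaks were thus of ordinary or low height: 25 of 39 lay below the median of the list. A few stood far above it, with 3 of the 39 among the strongest 10% of the list.

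**Figure D1:**
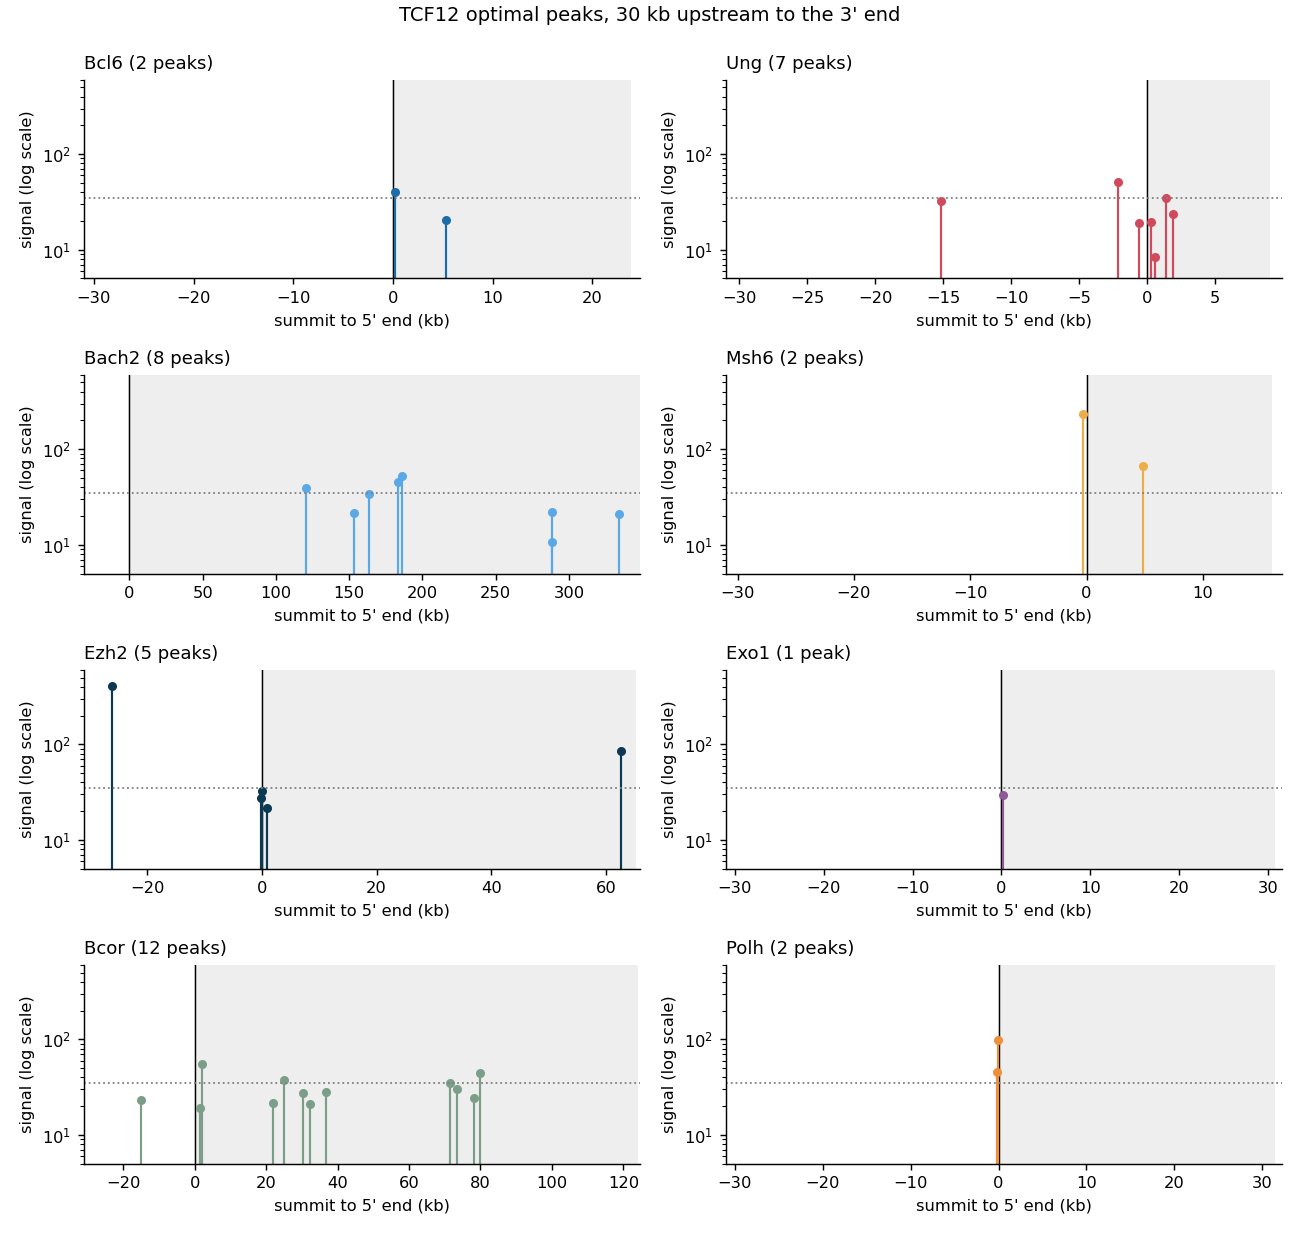
Each panel is 1 gene, with the distance of each peak summit from the 5′ end in kb on the horizontal axis (upstream to the left, gene body shaded) and the optimal signal on a log axis. The dotted line is the median signal of all optimal peaks, 35.0, and the Ezh2 peak 26.0 kb upstream (407) and the Msh6 promoter peak (233) stand highest above it.

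Ezh2 carried the strongest peak of the 8 genes. The summit lay 26.0 kb upstream of the 5′ end, at chr6:47621110-47621442, and inside no other protein-coding gene of the annotation, whose nearest 5′ end was that of Ezh2 itself. Its signal was 407 in the optimal list, 227 in replicate 1 and 179 in replicate 2. Both libraries ranked it near the top, at 11 and 10 among their 300000 relaxed peaks, and only 0.0223% of optimal peaks were stronger. Only 0.0574% of all genes had a peak at least as strong in their window.

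The promoter of Ezh2 was bound at a far lower level. Summits lay 198 bp upstream (signal 27.7), 86 bp downstream (32.1) and 986 bp downstream (21.3) of the 5′ end. The first and second of these overlapped a single peak in each replicate, of 33.7 in replicate 1 and 24.2 in replicate 2, so they may be counted as 1 bound stretch. The third had 17.8 in replicate 1 and 4.51 in replicate 2, ranked 87080 there, and was not in the conservative list. The last peak, 62.6 kb into the 65.0 kb gene, had a signal of 85.0 (43.9 in replicate 1 and 39.5 in replicate 2). The order at Ezh2 was therefore the distant upstream site, then the site near the 3′ end, then the promoter, and this order was the same in both replicates.

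Bcor, which encodes a corepressor bound by BCL6 and a subunit of a variant Polycomb repressive complex 1, had the most peaks of the 8 genes. It held 12 in 154 kb, or 7.80 per 100 kb. As many peaks or more were held by 1.59% of all genes, and 15.1% were at least as dense. None lay within 1 kb of the 5′ end: 1 was 14.9 kb upstream and 11 were in the gene body. The strongest were 2.13 kb (signal 55.4, chrX:12158198-12158581), 80.0 kb (44.9) and 24.9 kb (37.7) downstream, and the other 9 had signals of 19.0 to 34.8. Replicate 1 gave 39.5, 33.8 and 26.2 at those 3 peaks and replicate 2 gave 17.6, 10.1 and 17.3. The highest in replicate 1 was the highest in replicate 2, but the order of the other 2 was reversed.

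Bach2, a repressor that binds DNA with small MAF proteins, showed binding deep in the gene and none at its 5′ end. Its 8 peaks lay 120 to 334 kb downstream in a gene of 348 kb, at a density of 2.12 per 100 kb, beside the median of 2.07 over all genes. The strongest, at 186 kb (chr4:32424453-32424836), had a signal of 53.0, with 23.6 in replicate 1 and 25.3 in replicate 2. The next, at 183 kb, had 45.5, with 21.2 in replicate 1 and 23.1 in replicate 2. Replicate 2 was the higher library at both, which was so at 8 of the members' 39 peaks. RefSeq places another start of Bach2 179022 bp inside the gene, and from that start the same peaks were 7.21 kb and 4.34 kb downstream. The third, at 120 kb, had 39.0, with 28.3 in replicate 1 and 8.82 in replicate 2, and the other 5 had 10.7 to 33.7. A pair of summits at 288 kb shared 1 peak in each replicate and was missing from the conservative list.

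In the optimal list Bcl6 was the repressor with the fewest peaks, 2, but the conservative list gave it 4 and Ezh2 3, and so did the strongest peaks of replicate 2 alone. One lay 235 bp downstream of the 5′ end, at chr16:23988439-23988822, with a signal of 40.0 (24.6 in replicate 1 and 17.0 in replicate 2). The other lay 5.35 kb downstream with 20.7 (9.12 in replicate 1 and 9.74 in replicate 2). The promoter peak was among the strongest 35848 of both libraries, while the second, 2.23 kb upstream of another RefSeq start of the gene, ranked 55291 in replicate 1. No optimal summit lay in the 30 kb upstream of Bcl6. Replicate 2 had a relaxed peak 2.55 kb upstream (10.7, ranked 24455) that overlapped a relaxed peak of replicate 1.

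Among the repair genes, Msh6, which encodes a mismatch recognition protein, had the strongest peak, 291 bp upstream of the 5′ end at chr17:87974640-87974921. It had a signal of 233, with 139 in replicate 1 and 98.1 in replicate 2, and 0.667% of optimal peaks were stronger. A second peak 4.87 kb into the gene had 67.1, with 34.2 in replicate 1 and 34.7 in replicate 2. Both Msh6 peaks thus exceeded the median of the optimal list.

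Polh had 2 peaks, both at the promoter. The summit 6 bp upstream of the 5′ end, in chr17:46202455-46202838, had a signal of 98.8 and the summit 208 bp upstream had 45.1, and both overlapped 1 peak in each replicate (73.6 in replicate 1 and 29.5 in replicate 2). The stretch is shared with another gene: Xpo5, which encodes the exporter of microRNA precursors, starts 170 bp away on the opposite strand. The weaker summit was 38 bp from the 5′ end of Xpo5, and which of the genes either peak belongs to was not tested. The 150 bases upstream of Polh, from RefSeq on GRCm38.p6, minus strand, are shown because the stronger summit lies in them. Capitals mark 2 blocks in which the NRF1 word GCATGCGC occurs on both strands with overlap, and the SP/KLF word GGGCGG.
Polh promoter, chr17:46202642-46202791: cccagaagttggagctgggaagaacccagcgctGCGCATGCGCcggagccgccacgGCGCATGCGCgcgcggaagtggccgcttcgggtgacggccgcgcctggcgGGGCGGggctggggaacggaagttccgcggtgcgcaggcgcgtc
GCATGCGC on either strand occurred in 2.81% of 26794 RefSeq promoters of 300 bases and GGGCGG in 36.2%, and neither E-box of the main pair was in the Polh promoter.

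Ung had 7 peaks in 39.0 kb, a density of 18.0 per 100 kb that 2.49% of all genes reached. As many peaks or more were held by 6.72% of all genes. The strongest, 2.12 kb upstream at chr5:114128059-114128442, had a signal of 51.1 (27.5 in replicate 1 and 23.8 in replicate 2). Next were a peak 1.35 kb downstream with 34.5 (33.0 in replicate 1 and 5.73 in replicate 2) and one 15.1 kb upstream with 32.5 (23.2 in replicate 1 and 9.62 in replicate 2). The strongest within 1 kb of the 5′ end, 301 bp downstream, had only 19.5 (13.1 in replicate 1 and 6.66 in replicate 2). This summit and the one 542 bp downstream overlapped a single peak in each replicate, so they may be counted as 1 bound stretch. With summits closer than 500 bp merged Ung had 6 peaks, and at an IDR of 0.01 or less it had 3. Ung therefore had many peaks of modest height, and its strongest summit was not at its promoter. The locus is crowded. Alkbh2, which encodes a DNA demethylase of direct repair, starts 867 bp inside Ung on the opposite strand and runs over its 5′ end, so that the strongest Ung summit lay inside Alkbh2. Of the 7 summits, 3 were nearer to the 5′ end of Alkbh2 than to that of Ung. The peak 15.1 kb upstream lay inside Usp30, a gene for a mitochondrial deubiquitinase.

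Exo1 had the fewest peaks. Its single peak, 171 bp downstream of the 5′ end at chr1:175880747-175881130, had a signal of 29.3, with 9.59 in replicate 1 and 18.1 in replicate 2. Replicate 2 ranked it 12936 and replicate 1 ranked it 51392, outside that library's strongest 35848. It was missing from the conservative list, yet in the optimal list its score was the maximum of 1000, so it stayed at an IDR of 0.01 or less. The matched mm9 peak had its summit 57 bp downstream of the mm9 5′ end, in a UTR. The mm9 summit matched to the Bcl6 promoter peak, 132 bp downstream, also lay in a UTR.

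Set by role, the repressor genes and the repair genes differed in where their peaks lay. Of the 27 repressor peaks, 4 were within 1 kb of the 5′ end and 20 were more than 10 kb away, with a median distance of 36.7 kb. Of the 12 repair peaks, 7 were within 1 kb and 1 was more than 10 kb away, with a median distance of 0.562 kb. Ung alone gave 7 of these 12. At Ung, Polh and Ezh2, 2 promoter summits each overlapped a single peak in each replicate. The windows were also unequal, 680 kb for the repressors and 207 kb for the repair genes, and long genes leave more room for distant summits, so gene length and role cannot be told apart among 8 genes. Median signals were 28.0 for repressors and 33.5 for repair genes, each inside the quartiles of the optimal list. In all, 11 of the 39 peaks (28.2%, Wilson 95% interval 16.5 to 43.8%) were promoter peaks. They lay at 6 of the 8 genes, against 40.7% of all genes with a peak so placed. With summits closer than 500 bp merged, 22.9% of 35 peaks were promoter peaks. Counted to the 5′ end of any gene, 13 of the 39 (33.3%, 20.6 to 49.0%) were within 1 kb, against 28.9% of all optimal peaks, which lies inside that interval. Bach2 and Bcor had none. Peaks of a gene are not independent, so the interval covers counting error only.

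**Figure D2:**
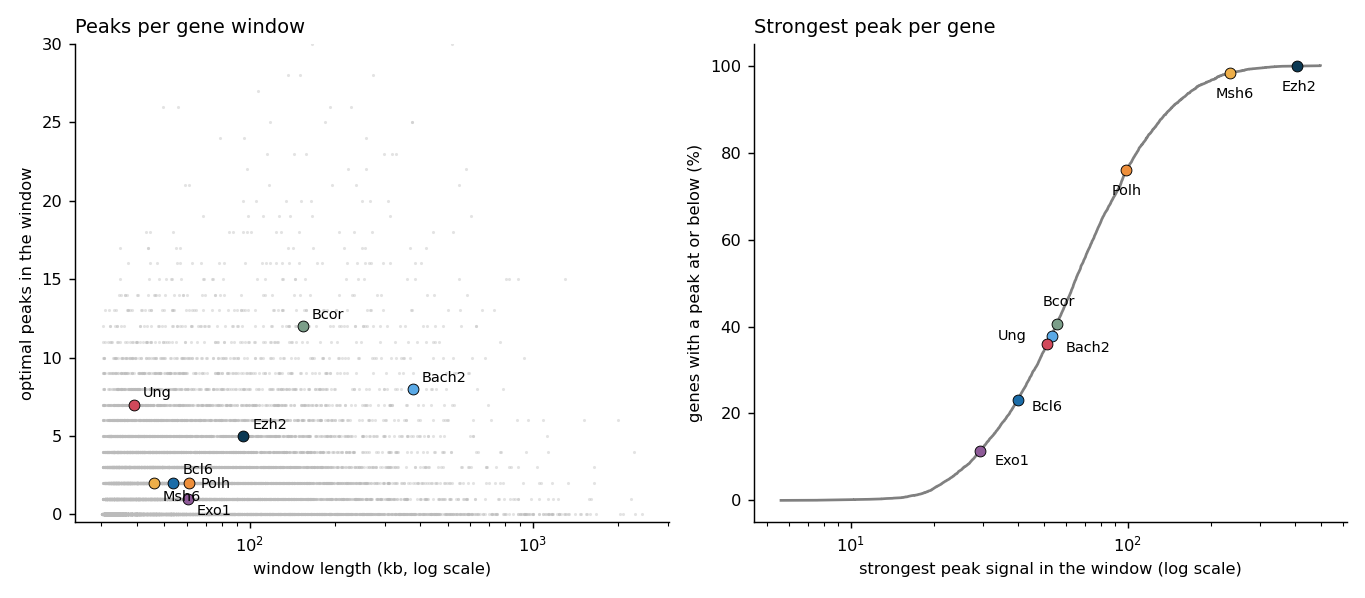
The left panel plots optimal peaks in the window against window length in kb on a log axis for all genes in grey and the members in colour (12 genes with more than 30 peaks are beyond the axis). The right panel plots the percentage of genes with a peak whose strongest signal is at or below a value on a log axis, with the members marked: Exo1 (29.3) sits lowest and Ezh2 (407) highest.

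The replicates were set side by side at all 39 peaks, each of which had a counterpart in both relaxed lists. The median ratio of replicate 1 to replicate 2 was 1.57, against 1.66 over all optimal peaks with a counterpart in both, and the range over the members ran from 0.529 at Exo1 to 5.76 at the Ung peak 1.35 kb downstream. Replicate 1 was the higher library at 31 of 39 peaks, against 85.7% of all optimal peaks. The scaling of the signal is not stated, so the offset between libraries has no meaning of its own. Of the members' ratios, 15 of 39 lay between the list's quartiles of 1.21 and 2.34, 11 below and 13 above. The 39 peaks overlapped 35 distinct peaks in replicate 1 and 35 in replicate 2.

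**Figure D3:**
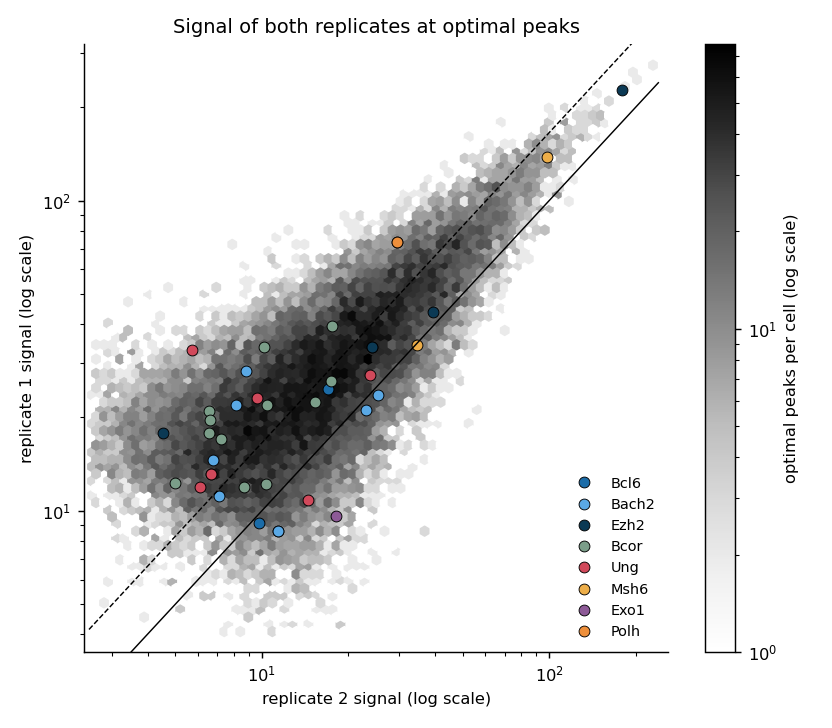
Replicate 1 signal against replicate 2 signal, both on log axes, for all optimal peaks found in both (grey, darker for more peaks) and for the members' peaks (coloured by gene). The solid line marks equal signal and the dashed line the median ratio of 1.66, and the Exo1 point lies farthest below the solid line among the members (0.529).

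Of the members' 39 peaks, 20 were among the strongest 35848 of both libraries, against 71.3% of all optimal peaks. At an IDR of 0.01 or less, read from the score column on its usual scaling, 23 of 39 remained, against 67.8% of all. The conservative list held 32 of the 39, against 83.6% of all. The first 2 shares of the members were under those of the whole list, and the third was close to it. The members' peaks were also weaker on the median, as given above. Counted by its own summits, the conservative list held 43 peaks in the members' windows. By gene, the count of peaks in the top set of both libraries was 4 of 8 at Bach2, 4 of 5 at Ezh2, 5 of 12 at Bcor, 2 of 7 at Ung, 2 of 2 at both Msh6 and Polh, 1 of 2 at Bcl6 and 0 of 1 at Exo1.

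The single libraries gave the same genes with a slight difference. Taking as many of the strongest peaks in 1 library as the optimal list holds, replicate 1 had a summit in the windows of 7 of 8 members, against 64.6% of all genes, and replicate 2 in 8 of 8, against 64.5%. Exo1 was the member without one in replicate 1. In the relaxed lists, which hold background by design, the members' windows held 9.90 to 51.3 peaks per 100 kb in replicate 2 and 16.5 to 38.5 in replicate 1, against 11.4 over the genome in each. The genome figure also covers sequence outside gene windows, and no figure for the windows of all genes is given. The lowest of the members' densities in both libraries was at Exo1 and the highest at Ung. Some relaxed peaks overlapped no optimal peak but did overlap a relaxed peak of the other replicate. The strongest of them in replicate 1 was at Bcor, 27.2 kb downstream with 22.4, where replicate 2 had 13.7. The strongest in replicate 2 was at Ung, 2.71 kb upstream with 20.3, where replicate 1 had 14.0.

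The mm9 list was used for annotation and sequence. It held 25 peaks in the members' windows, of which 22 had an mm10 optimal counterpart, that is, a peak within 200 bp of the same distance from the gene's start. The start was the same sequence in both builds for every member but Exo1, for which each build's annotated 5′ end was used. The main pair of E-boxes, CAGCTG or CACCTG with all letters at most 50 bp from the summit, occurred in 9 of 25 (36.0%, Wilson 95% interval 20.2 to 55.5%), against 31.0% of 23572 mm9 peaks. The interval includes the share of all peaks. Any CANNTG was found in 14 of 25 (56.0%), against 52.1%. By gene, the pair was found in 3 of 7 at Bcor, 2 of 5 at Bach2, 1 of 4 at Ezh2, 1 of 3 at Ung, 1 of 2 at Msh6, 1 of 1 at Exo1, 0 of 1 at Bcl6 and 0 of 2 at Polh. CACCTG was the more frequent word, at 7 peaks, and CAGCTG was at 2, both in introns of Bcor.

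In the whole mm9 list, peaks within 1 kb of the 5′ end of any protein-coding gene (promoter) and peaks beyond (distant) held the pair at different rates, 14.4% and 39.6%. In the members it was in 2 of 7 peaks within 1 kb of the member's 5′ end, at Msh6 and Exo1, and in 7 of 18 beyond 1 kb. The members were split by their own 5′ end only, so the classes are not quite alike. The SP/KLF word GGGCGG, searched in the same windows and on both strands, was in 8 of 25 (32.0%, Wilson 95% interval 17.2 to 51.6%). It was in 15.5% of all mm9 peaks, 33.3% of the promoter ones and 6.26% of the distant ones. The members' peaks with it lay within 1 kb of the member's 5′ end at Ezh2, Msh6, Exo1 and Polh, and beyond at Bach2, Bcor and Ung. The words of the ETS factors (CCGGAAG), NFY (CCAAT) and RUNX (TGTGGT) were in 1, 2 and 2 of 25 (4.00%, 8.00% and 8.00%), against 6.50%, 9.06% and 11.4% of all mm9 peaks. The octamer ATGCAAAT was in 0 of 25, which allows a share of up to 12.0% by a limit of 3 counts, against 2.25% of all peaks.

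The E-box of Ezh2, shown above, sits in the strongest of the members' peaks, and that of Msh6 sits within the promoter peak, centred 1 bp from its summit. Both peaks ranked high in the mm9 list too, 9 and 271 of 23575, on that list's own scale. The mm9 list also placed 3 peaks with no mm10 optimal counterpart. One, 27.1 kb downstream of the start of Bcor, held CAGCTG, had an mm9 signal of 49.9 and was present in the mm10 conservative list at 39.8, with 22.4 in replicate 1 and 13.7 in replicate 2. Another at Bcor, 112 kb downstream, held CACCTG and was also in the conservative list, at 27.1. The third, at Bach2, was found in replicate 1 and not in replicate 2.

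The wider pathway was read from gene lists of the same processes. The lists were drawn up with earlier results of these data known, so their shares are descriptions and not tests. Of 37 other genes of repair and antibody diversification with a strand, 36 had an optimal peak, against 63.6% of all genes, and 29 had a promoter peak, against 40.7%. The strongest were at Rad50 (signal 165), which encodes a subunit of the double-strand break sensor, Polq (148), the polymerase of microhomology end joining, Xrcc5 (139), which encodes Ku80, and Paxip1 (134), a gene required for class switching. The Rad50 summit lay 50.3 kb downstream of the 5′ end, and those of Polq, Xrcc5 and Paxip1 lay within 1 kb of theirs. Samhd1, a nucleotide hydrolase, had no optimal peak. Among the strongest 35848 of each library its window held 3 summits in replicate 1 and 1 in replicate 2. Of 28 partners of the repressors, 27 had a peak and 21 a promoter peak. The strongest were at Mtf2 (281) and Aebp2 (159), encoding accessory subunits of Polycomb repressive complex 2, Maff (195), encoding a small MAF protein, and Ezh1 (164), the paralogue of Ezh2. The Mtf2 summit lay 59 bp downstream of the 5′ end. Those of Aebp2, Maff and Ezh1 lay 1.54, 11.2 and 27.3 kb upstream, and which gene a distant peak serves was not tested. Rnf2, a ubiquitin ligase of Polycomb repressive complex 1, had no optimal peak. Among the strongest of each library its window held 0 summits in replicate 1 and 1 in replicate 2.

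Window lengths differed between the lists, with a median of 81.6 kb for the repair list, 64.5 kb for the partners and 47.4 kb for all genes, and the shortest windows held peaks least often, as given above. The median of the strongest peak was 67.7 in the repair list, 72.6 among the partners and 64.0 over all genes with a peak. Against these, Ezh2, Msh6 and Polh stood above and the other 5 members below. The B cell genes Cd79a, Cd79b, Ms4a1, Pax5 and Cd22 each carried a peak, with the strongest 78.9 to 271. Of 6 genes of other lineages 2 carried one, Rbfox3 (54.4) and Cd3e (37.8), against 63.6% of all genes. Cd8a, Alb, Myod1 and Hbb-bt had none. These are peaks and not expression, and genes of both kinds carried them. They describe the line by TCF12 occupancy only and do not identify the cell type.

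**Figure D4:**
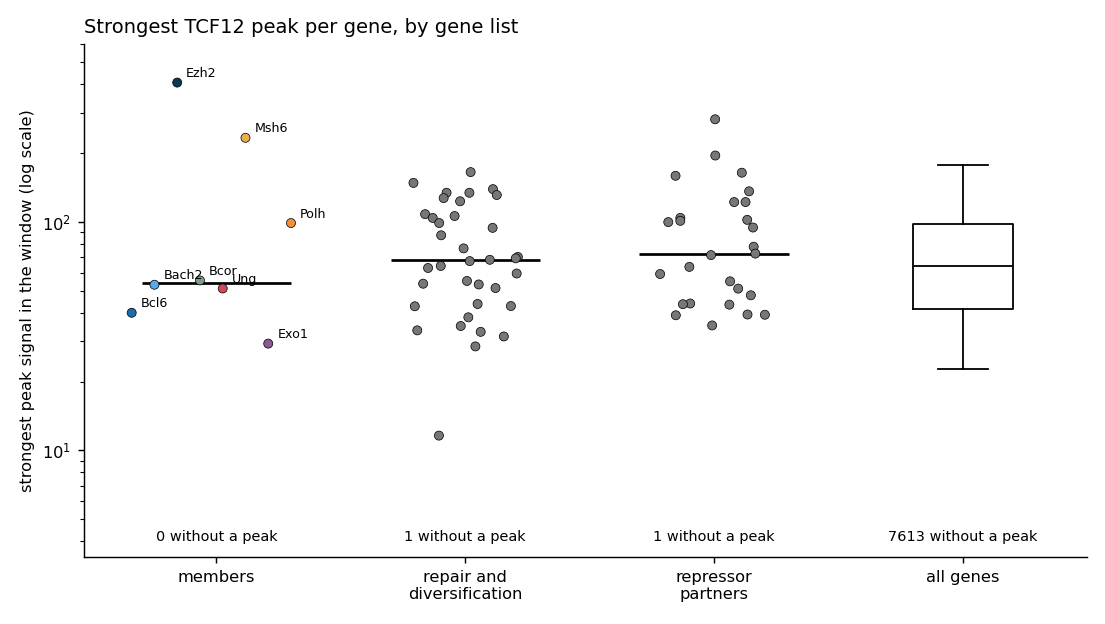
The strongest optimal signal per gene window on a log axis for the 8 members, the repair and diversification list, the partners of the repressors and all genes with a peak. Horizontal lines are medians, the box spans the quartiles with whiskers at the 5th and 95th percentiles, and genes without a peak are counted at the foot (7613 of all genes).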

How the data were processed

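TCF12 ChIP-seq was deposited for 2 biological replicates of CH12.LX, 1 group. Per the deposited file descriptions, the authors called relaxed peaks with background on each replicate and on the pooled reads, with a control, and derived the optimal and conservative lists on mm10 from them by IDR. A further list was on mm9. Which aligner and caller were used is not given in the sources used here. The signal of each peak is the authors' caller's own, with no stated scaling. The score is the authors' scaled IDR score, on which 830 or more was read as an IDR of at most 0.01, assuming the usual scaling of that column. The files give no read depth, and intervals cover counting error only. Nothing in the labels gives separate cultures beyond the biological replicate numbers.

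Genes came from RefSeq on GRCm38.p6, and strand from its promoter table or else from GENCODE vM1 by symbol and chromosome. A strand was found for 20923 (96.7%) of the 21631 coding genes of the autosomes and X. The summit is the start plus the deposited offset, counted from 1. A replicate's value at an optimal peak is the strongest relaxed peak that overlaps it by at least 1 bp. Sequence and exons came from mm9 (NCBIM37 with GENCODE vM1), and no coordinate was converted. The same start was found in both builds by an exact match of the RefSeq promoter, available for 7 of 8 members (not Exo1). For Exo1 and for peaks matched by distance a tolerance of 200 bp was used.

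No test was made, since there is 1 group and the members and lists were chosen with earlier results of these data known. All peaks are named for members with 6 or fewer. For the rest the 3 strongest and the strongest within 1 kb of the 5′ end are named, with up to 4 of the strongest genes per list. A few items are not reported here. Scripts were tested on simulated peaks. Python 3.11.15, NumPy 2.4.6, pandas 2.3.3 and SciPy 1.17.1 were used.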

Additional observations from a re-analysis of the deposited data

How the results depend on the processing

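Of 39 alternatives over 6 results, 34 left the value inside its interval, or a count within 1.5 times, and 5 moved it. At an IDR of 0.01 or less the members kept 23 peaks, in place of 39, and their median signal was 40.0, in place of 29.99. With 1 library alone the median signal ranged from 11.6 (without replicate 1) to 22.2 (without replicate 2), on each library's own scale, and all 8 genes kept a peak without replicate 1, while Exo1 lost its peak without replicate 2. With E-boxes searched within 25 bp of the summit the share was 16.0% (18.3% of all mm9 peaks), in place of 36.0% (31.0% of all), so the members changed from above to below the whole list, and within 100 bp the shares were 44.0% and 43.9%. Exo1 was also without a peak in the conservative list, so 7 members had one. With 10 kb upstream in place of 30 kb the strongest Ezh2 peak was 85.0 and no longer 407. No paired analysis was possible because there is 1 group. Depth is unknown, so the absence of a peak, as at the 5′ ends of Bach2 and Bcor, says only that none was listed.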

Other observations

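Farther out, between 30 and 100 kb upstream of the members, the optimal list held 14 more peaks: 6 at Ung, 4 at Ezh2, 3 at Polh and 1 at Bcl6, with none at Bach2, Bcor, Msh6 or Exo1. A strong one lay 41.4 kb upstream of Ezh2, with a signal of 146, and 3.42% of optimal peaks were stronger. Its nearest 5′ end was that of Gm40369, at 16245 bp. The strongest for Polh, 45.3 kb upstream with 117, lay 60 bp from the 5′ end of Polr1c, which encodes a subunit shared by RNA polymerases I and III, and the one 80.3 kb upstream, with 69.0, lay 94 bp from that of Tjap1. For Ung the strongest, 68.5 kb upstream, had 96.3, higher than any peak in its own window, and a peak 30.1 kb upstream with 66.5 lay 14 bp from the 5′ end of Usp30. Nearness to a 5′ end does not show which gene a peak serves, and this was not tested.

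In the RefSeq promoters of 300 bases, available for 7 of the 8 members, only Ung held one of the main pair of E-boxes, against 32.8% of 26794 promoters. The Ezh2 promoter held the NFY word CCAAT, on either strand, at 3 places, 90, 64 and 11 bp upstream of its start, and 38.1% of all promoters held it at least once. The Msh6 promoter held GGGCGG at 5 places and the E2F word TTCCCGC once, a word found in 4.70% of all promoters.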
